A study of Mus musculus with 4 samples.

Results

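The genes described here are 6 members of the POU family of transcription factors with roles in the nervous system: Pou3f2, Pou3f3, Pou3f1, Pou6f1, Pou2f2 and Pou2f1. They were chosen by symbol, with earlier results of these data known, and each was counted where the authors' table of reproducible regions lists a phosphorylated STAT3 (pSTAT3) region with one of its transcripts within 25 kb. All 6 were listed, with 18 regions out of 12925 in the table. Because the members were selected on this table, their presence, number of regions and fold enrichments are given as a description, without tests.

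POU factors bind DNA through a bipartite domain, a POU-specific part and a POU homeodomain joined by a linker, and many recognise the octamer ATGCAAAT or variants of it. Pou3f1, Pou3f2 and Pou3f3 act in neural progenitors and in developing glia and neurons, and Pou3f1 is best known for its part in the timing of Schwann cell myelination. Pou2f1 is a widely expressed octamer-binding factor, Pou2f2 is best known from B cells and is also present in neural tissue, and Pou6f1 is found in the brain. STAT3 is a transcription factor activated by cytokines: receptors with the gp130 chain, such as that for CNTF, engage JAK kinases that phosphorylate it on a tyrosine, after which STAT3 dimers bind sites of the form TTCNNNGAA.

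The libraries were made from cultured cortical progenitors of the oligodendrocyte lineage, taken from the C57BL/6 strain. Such progenitors divide and later mature into oligodendrocytes, the cells that form myelin in the central nervous system. Every culture was kept in PDGF-AA at 10 ng/ml with bFGF at 20 ng/ml and received 100 ng/ml CNTF for 15 min, so the series has no untreated cells. There were 2 ChIP libraries made with an antibody to STAT3 phosphorylated at Y705, and 2 input libraries. Lysed cells were pooled before sonication, and the labels do not give separate cultures for the ChIP libraries, so their spread could be purely technical. ChIP peaks do not measure expression, and the identity of the cells was not checked against marker genes.

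The deposited lists held 42131 peaks on the main chromosomes in library 1 and 26537 in library 2. The fold enrichment of a peak is the height of stacked fragments at its summit (the pileup) over the local background, with 1 added to each, as the authors' peak caller gave it. Read counts were not used, so depth was judged only indirectly, from the lowest background, worked out from the pileup and fold of the peaks. It was 4.72 fragments in library 1 and 2.91 in library 2, a ratio of 1.62. Each region was given the fold of the strongest overlapping peak in each library, and the lower of the values is called the lower fold. Over all regions of the table, the median fold was 10.4 in library 1 and 7.51 in library 2. Distances run from the midpoint of a region to the nearest listed transcription start of the gene, and are minus upstream.

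The letters of distal regions are not shown, since no genome was used here. Promoter windows, 250 bases before to 50 after a start, were read from RefSeq (GRCm38.p6) for 5 of the 6 members. The windows below are shown because peaks of both libraries had their summits in them, or, for Pou3f2, because a reproducible region reached into the window. Capitals mark the bases within 10 of the library 1 summit, except in Pou3f2, where they mark the bases inside the reproducible region. The windows are chr1:42695518-42695817 (plus strand) for Pou3f3, chr15:100599935-100600234 (minus strand) for Pou6f1, chr4:22488317-22488616 (minus strand) for Pou3f2 and chr1:165934899-165935198 (minus strand) for an internal start of Pou2f1. The window chr15:100615412-100615711 (plus strand) is the promoter of Dazap2, a neighbour of Pou6f1, and lies under a region that the table lists with both genes.
Pou3f3: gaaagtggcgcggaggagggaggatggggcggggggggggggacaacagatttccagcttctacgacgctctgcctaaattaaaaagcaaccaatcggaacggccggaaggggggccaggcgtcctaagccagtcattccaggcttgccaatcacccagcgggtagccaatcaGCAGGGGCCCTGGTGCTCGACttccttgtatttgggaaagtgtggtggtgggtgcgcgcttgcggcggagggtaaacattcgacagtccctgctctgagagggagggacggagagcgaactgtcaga
Pou6f1: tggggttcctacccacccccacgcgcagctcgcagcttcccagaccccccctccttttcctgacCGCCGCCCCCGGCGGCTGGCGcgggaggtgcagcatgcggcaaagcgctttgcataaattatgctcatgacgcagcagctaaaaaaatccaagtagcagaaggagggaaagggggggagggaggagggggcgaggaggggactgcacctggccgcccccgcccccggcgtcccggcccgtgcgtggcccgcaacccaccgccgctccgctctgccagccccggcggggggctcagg
Pou3f2: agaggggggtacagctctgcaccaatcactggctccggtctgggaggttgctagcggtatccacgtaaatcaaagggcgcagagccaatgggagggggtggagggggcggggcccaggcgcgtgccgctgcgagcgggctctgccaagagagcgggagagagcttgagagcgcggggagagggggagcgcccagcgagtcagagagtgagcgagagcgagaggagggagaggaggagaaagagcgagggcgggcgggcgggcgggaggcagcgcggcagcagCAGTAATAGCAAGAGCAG
Pou2f1: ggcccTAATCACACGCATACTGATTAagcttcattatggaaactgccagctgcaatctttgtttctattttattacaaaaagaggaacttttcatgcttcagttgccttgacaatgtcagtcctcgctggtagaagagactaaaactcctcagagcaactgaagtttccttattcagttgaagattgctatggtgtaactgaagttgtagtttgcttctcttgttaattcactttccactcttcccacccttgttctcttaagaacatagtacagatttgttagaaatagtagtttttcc
Dazap2: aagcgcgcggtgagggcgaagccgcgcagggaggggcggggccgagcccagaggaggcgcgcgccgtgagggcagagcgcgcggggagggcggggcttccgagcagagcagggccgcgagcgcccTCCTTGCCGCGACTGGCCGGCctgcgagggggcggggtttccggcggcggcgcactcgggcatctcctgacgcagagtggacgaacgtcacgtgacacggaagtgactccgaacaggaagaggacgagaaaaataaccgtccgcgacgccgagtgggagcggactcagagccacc

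The Pou3f3, Pou6f1 and Pou3f2 windows were rich in G and C, at 60.3%, 70.3% and 67.7%, with 18, 26 and 24 CpG dinucleotides. The internal Pou2f1 window held 38.0% G and C and 2 CpG dinucleotides. Dazap2 had 72.3% and 43. The median over all 32851 windows was 52.7% and 7 CpG dinucleotides, and over the 1352 windows that held the library 1 summit of a reproducible region it was 60.3% and 21. The Pou3f3, Pou6f1 and Pou3f2 windows thus lay above the median of all windows on both counts, and the internal Pou2f1 window lay below it.

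The STAT form TTCNNNGAA, searched on both strands, was found in 1 of the 7 member windows. It was TTCGCGGAA in another Pou2f1 window, chr1:165953022-165953321, where neither library had a peak. The tighter form TTCCNGGAA, which is contained in the first, and the octamer ATGCAAAT were in none of the 7. Among all windows, 8.30% held TTCNNNGAA, 1.15% TTCCNGGAA and 1.74% the octamer. Among windows with a region summit, the shares were 20.9%, 8.73% and 1.78%. The member windows that held summits of both libraries thus did not hold these letters, which says nothing about bases outside the windows or about the factors.

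All 6 members were listed with a region, where 41% of 21887 protein-coding genes (8974) were, a count that the choice of members fixed. A region midpoint lay within 5 kb of a start for 3 members, Pou3f2, Pou3f3 and Pou6f1, against 18.1% of protein-coding genes (3959). It lay within 1 kb for 2 of them, Pou3f2 and Pou3f3, against 12.8% (2803). The same 2 genes had 5 regions each, where 1.84% of protein-coding genes (403) had 5 or more and the listed genes had a median of 1 and a maximum of 27. Pou6f1 had 4 regions, Pou2f2 had 2, and Pou3f1 and Pou2f1 had 1 each.

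Most of these regions lay away from the members' own starts. Of the 18, 9 lay upstream of the gene by more than 1 kb, 2 within 1 kb of a start, 1 inside the gene and 6 past its end. The member owned the nearest listed start for 7 regions, which were all 5 of Pou3f2, 1 of Pou6f1 and that of Pou3f1. The other 11 regions had the start of another transcript closer by, so they are near a member without being nearest to it. Only 3 regions, all at Pou3f2, were listed with no other gene.

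**Figure D1:**
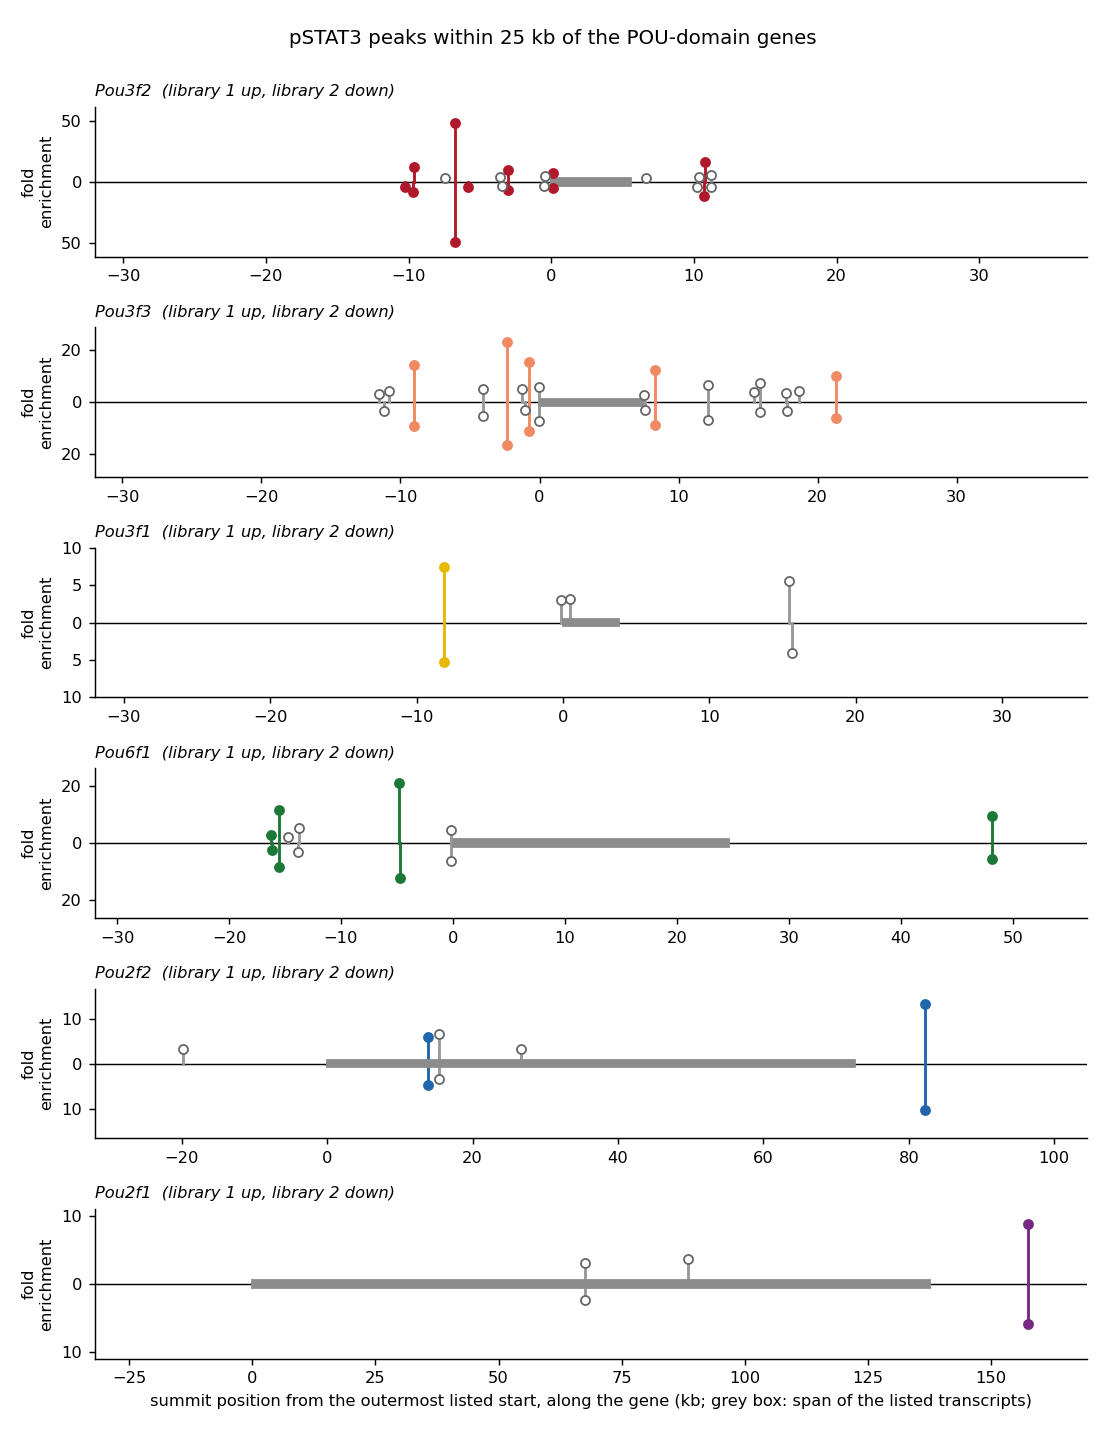
Position and fold enrichment of every pSTAT3 peak within 25 kb of the 6 genes, with library 1 drawn upward and library 2 downward; the x axis is the distance in kb of the summit from the outermost listed start, along the direction of transcription, and the grey box spans the listed transcripts. Filled points belong to reproducible regions and open points do not; the tallest pair stands upstream of Pou3f2, at 47.9-fold and 49.2-fold, and each panel has its own y axis.

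Pou3f2, which acts in cortical neurogenesis and in Schwann cells, had by far the highest fold of the 6 genes. The gene is a single-transcript gene in the table (ENSMUSG00000095139, minus strand of chromosome 4, 22482780 to 22488366, GRCm38). Its strongest region, chr4:22493969-22495313, had a fold of 47.9 in library 1 and 49.2 in library 2, with 273 and 191 stacked fragments at the summits. The midpoint lay 6.275 kb upstream of the start. The summits, at 22495100 and 22495108, lay 8 bp apart and 6.73 kb and 6.74 kb upstream. By the lower fold this region ranked 8 of the 12925, with 99.9% of regions weaker.

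Both libraries gave nearly the same fold at that upstream region. It was the only one of the 18 member regions with the higher fold in library 2. The highest pileup of any peak was 326 in library 1 and 302 in library 2, so neither summit was at the top of its list. The region also overlapped a weaker library 2 peak, with a summit at 22494200, a fold of 4.12 and 21 fragments. The mean -log10 p that the authors' table gives for the region, 253, takes in the weaker peak, and the mean over the strongest peak of each library was 318.

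The other Pou3f2 regions were weaker and lay on both sides of the gene. The strongest region exceeded the next by 2.88 times in library 1 and 4.27 times in library 2. That next region, chr4:22477398-22477755, lay past the gene's end, 10.79 kb downstream of the start, with a fold of 16.6 in library 1 and 11.5 in library 2. A region 9.655 kb upstream had 11.9 and 8.45, and one 2.964 kb upstream had 10.0 and 6.40. The region over the start itself, chr4:22488105-22488334, had its midpoint 147 bp inside the gene and was the weakest of the 5, at 7.17 and 5.38, with 40 and 20 fragments. Among the 5 regions, whose midpoints spread across 20.4 kb, pSTAT3 signal was thus lowest at the start and highest several kilobases upstream.

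By the fold of the strongest region in both libraries, the genes most like Pou3f2 among the 160 others with 5 listed regions were Bahcc1, Etv6 and Itpr1. The likeness is the Euclidean distance in log2 fold over the 2 libraries. Bahcc1 had 47.3 and 49.95 (distance 0.0293), Etv6 had 46.3 and 47.2 (0.0762), and Itpr1 had 51.8 and 51.7 (0.133). The Bahcc1 region lay 8.92 kb upstream of a start, which is the nearest of the 3 to the placement at Pou3f2. The Etv6 region lay 413 bp upstream of a start and the Itpr1 region far inside the gene.

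Pou3f3, a close relative of Pou3f2 that acts with it in cortical progenitors, had the second highest fold and its regions on both sides of the gene (ENSMUSG00000045515, plus strand of chromosome 1, 42695768 to 42703176). Its strongest region, chr1:42693105-42694289, lay 2.071 kb upstream, with a fold of 23.1 in library 1 and 16.6 in library 2 and with 131 and 64 fragments. Another, chr1:42694879-42695180, lay 739 bp upstream, at 15.4 and 11.01. The farther upstream region, 9.11 kb from the start, had 14.3 and 9.28. Of these 3 upstream regions, the one in the middle had the highest fold.

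Downstream, a region 469 bp past the end of Pou3f3, 8.281 kb from its start, had a fold of 12.6 in library 1 and 8.70 in library 2. The last one, 21.295 kb from the start, had 10.1 and 6.07. The 5 regions covered 30.4 kb from the first midpoint to the last, and the strongest exceeded the next by 1.50 times in library 1 and 1.51 times in library 2. Signal at Pou3f3 was therefore more even across regions than at Pou3f2.

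All 5 Pou3f3 regions were also listed with noncoding neighbours, Pantr1, Pantr2 and Gm20646. Pantr1 and Pantr2 are long noncoding transcripts that adjoin Pou3f3. The strongest region lay inside a Pantr1 transcript, 544 bp from a Pantr1 start. The region 739 bp upstream of Pou3f3 was 104 bp from a start of Gm20646. The nearest start of the region 9.11 kb upstream was that of Pantr1, 6435 bp away. For the downstream regions it was that of Pantr2, 4003 bp and 3609 bp away. All 5 regions thus had a start of a noncoding neighbour closer by than that of Pou3f3. To which of these genes the regions belong was not tested.

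Pou3f1 had a single region, and it was the weakest among the strongest regions of the 6 genes (ENSMUSG00000090125, plus strand of chromosome 4, 124656807 to 124660655). The region, chr4:124648436-124648809, lay 8.185 kb upstream, inside a transcript named Gm27247. Its fold was 7.43 in library 1 and 5.21 in library 2, with 44 and 20 fragments, and 16.9% of all regions were weaker. Its irreproducible discovery rate (IDR), the measure by which the authors' table was limited to 0.05, was 0.0111. Library 1 alone had peaks at the start, 99 bp upstream with a fold of 3.09 and 506 bp downstream with 3.16, from 21 and 19 fragments. pSTAT3 signal at this gene was thus low and rested on library 1 at the promoter.

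Pou6f1 (ENSMUSG00000009739, minus strand of chromosome 15, 100575318 to 100599984) had one strong region near its start and others at the promoters of its neighbours. The strong one, chr15:100604561-100605101, lay 4.847 kb upstream, with a fold of 21.0 in library 1 and 12.3 in library 2 and with 123 and 47 fragments. By the lower fold 78.0% of all regions were weaker. Its IDR was 1.21e-06, and Pou6f1 owned the nearest start.

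The remaining Pou6f1 regions lay at other genes' starts. A region 15.452 kb upstream, chr15:100615171-100615701, was 192 bp from a start of Dazap2, with a fold of 11.5 in library 1 and 8.45 in library 2. Its summits fell at positions 136 and 145 of the Dazap2 window printed above. A region past the other end of the gene, chr15:100551397-100552337, was 141 bp from a start of Tfcp2, a transcription factor gene, with 9.37 and 5.59. The last, 16.27 kb upstream and inside Dazap2, had only 2.97 and 2.50, from 16 and 11 fragments, and ranked 12900 of 12925. Its IDR was 0.0359 with a mean -log10 p of 4.12, the lowest of the member regions.

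Pou2f2 had a moderate region at another gene's promoter and a weak one inside it (ENSMUSG00000008496, minus strand of chromosome 7, 25087344 to 25159922). The first, chr7:25076748-25077852, lay 9.49 kb past the gene's end and 54 bp from a start of Zfp574, a zinc finger gene, with a fold of 13.3 in library 1 and 10.2 in library 2 and with 75 and 39 fragments. The second, chr7:25145815-25146155, lay inside the longest Pou2f2 transcript, 13.473 kb upstream of the nearest of its starts, with 5.95 and 4.86 from 33 and 18 fragments; the closest listed start, 6472 bp away, was that of D930028M14Rik. The second had an IDR of 0.0446, the highest of the 18 and just inside the threshold. Its mean -log10 p was 13.5.

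Pou2f1 had 1 region, far from its starts (ENSMUSG00000026565, minus strand of chromosome 1, 165865154 to 166002678). The region, chr1:165845079-165845400, lay 19.75 kb past the end of the gene and inside Cd247, which encodes a chain of the T cell receptor complex. Its fold was 8.75 in library 1 and 5.89 in library 2, with 49 and 22 fragments, and 28.5% of all regions were weaker. The nearest listed start, 631 bp away, belonged to a clone-named transcript. Pou2f1 was thus listed through a region nearer to other transcripts.

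**Figure D2:**
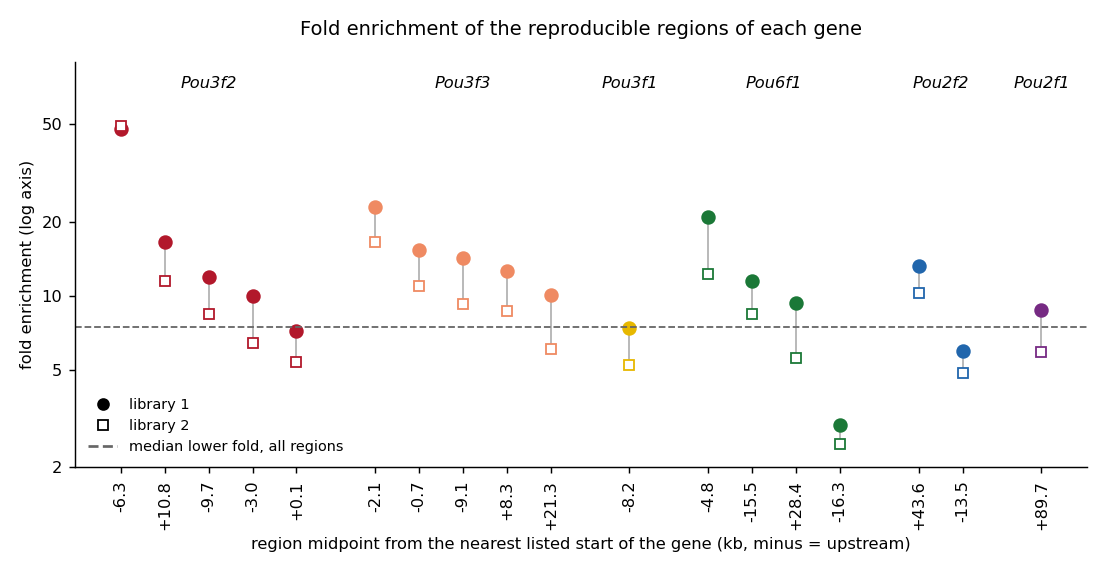
Fold enrichment (log axis) of the 18 reproducible regions in library 1 (filled circles) and library 2 (open squares), grouped by gene and ordered by the lower fold; the x axis gives the distance in kb from the nearest listed start and the dashed line the median lower fold of all regions, 7.48. Library 2 is the lower one in 17 of the 18 regions, and the exception is the upstream Pou3f2 region at 47.9 and 49.2.

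By the strongest region within 25 kb, the genes came in the order Pou3f2, Pou3f3, Pou6f1, Pou2f2, Pou2f1 and Pou3f1, in either library and by fold or by pileup. With the overlapping peak nearest the midpoint instead, the lower fold of Pou3f2 was 11.5, below Pou3f3 (16.6) and Pou6f1 (12.3). By the strongest peaks, the step below Pou3f2, to 23.1 and 16.6 at Pou3f3, was wider than the gap between the libraries. The values of Pou3f3 and Pou6f1 overlapped, as did those of Pou6f1 and Pou2f2, and those of Pou2f1 and Pou3f1, when the values of both libraries are pooled. Within each library the first gene of each of these pairs was the higher, and library 1 was the higher in 95.2% of all regions, so the overlap includes that offset between the libraries. With 2 libraries these differences were not tested. Those of Pou2f2, at 13.3 and 10.2, did not overlap those of Pou2f1, at 8.75 and 5.89.

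The median strength of the 18 regions was close to that of the table as a whole. Their median fold was 11.7 in library 1 and 8.45 in library 2, against 10.4 and 7.51 over all regions. Of the 18, 10 lay above the median lower fold of all regions, 7.48. The fold in library 1 was the higher in 17 of 18, against 95.2% of all regions, and the median ratio of library 2 to library 1 was 0.705 against 0.752. Spearman's rho between the libraries was 0.990 over the 18 regions and 0.905 over all regions, as a description over regions that share their libraries. The single regions ranged widely about these medians, from the weak one inside Dazap2, at 2.97 and 2.50, to the strongest one of Pou3f2.

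**Figure D3:**
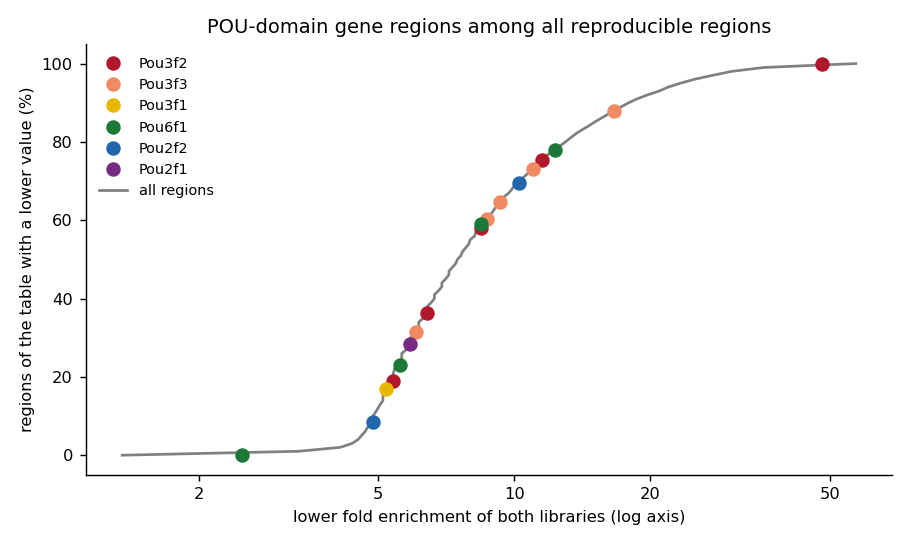
Share of the 12925 reproducible regions (y axis, percent) with a lower fold below a given value (x axis, log scale); the grey line is the whole table and each coloured point is 1 of the 18 member regions. The points run along the whole line, from the weak region inside Dazap2 at 2.50 to the upstream Pou3f2 region at 47.9.

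The summits were placed alike in both libraries. The summit gap between libraries had a median of 12 bp over the 18 regions and of 20 bp over all, and 16 of the 18 lay within 50 bp. The widest gap, 104 bp, belonged to the weak region inside Dazap2. The farthest summit from a region midpoint, 459 bp in library 1, was that of the strongest Pou3f2 region, where the position of the midpoint describes the binding least well. The local background stood at the library's lowest value in 11 regions in library 1 and 12 in library 2.

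The peak lists held more peaks around these genes than the table shows. Within 25 kb of the members' transcripts, library 1 had 46 peaks and library 2 had 37, of which 34 and 36 overlapped a peak of the other library. Pou3f2 had 11 peaks in each library. Pou3f3 had 16 and 13. Over all protein-coding genes the median was 2 and 1. As many peaks as at Pou3f2 were found at 2.80% of genes in library 1 and 0.927% in library 2, and as many as at Pou3f3 at 0.946% and 0.503%.

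Around the other members the peaks were fewer. Pou6f1 had 7 and 6, numbers reached by 8.65% and 5.23% of genes. Pou2f2 had 5 and 3, reached by 17.8% and 21.8%, Pou3f1 had 4 and 2, reached by 26.1% and 37.1%, and Pou2f1 had 3 and 2, reached by 38.1% and 37.1%. The crowded loci were thus those of Pou3f2 and Pou3f3, the same genes that had 5 regions each in the table. The peak counts include the peaks under those regions, and the members were chosen from the table, so this is no separate support.

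Of the 36 overlapping pairs of peaks, 16 lay outside the reproducible table, and some of these sat on the promoters. At Pou3f3, a pair had its summits 67 and 68 bp upstream of the start, at positions 184 and 183 of the printed window, with a fold of 5.95 in library 1 and 7.42 in library 2, from 33 and 28 fragments. At Pou6f1, the summits lay 176 and 182 bp upstream, at positions 75 and 69 of its window, with 4.55 and 6.14, from 25 and 23 fragments. At the internal Pou2f1 start, they lay 235 and 233 bp upstream, with 3.06 and 2.36, from 37 and 18 fragments. At the Pou2f1 pair the local background was raised, at 11.4 and 7.06 fragments against lowest values of 4.72 and 2.91, so its fold was low for its pileup.

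The promoter pairs of Pou3f3 and Pou6f1 had the higher fold in library 2. Library 1 was the higher at the Pou2f1 pair. The same held for a Pou3f2 pair 460 and 515 bp upstream of the start, at 4.72 and 3.07. Library 2 had the higher fold in 4 of the 16 member pairs outside the table (25.0%), against 26.7% of the 11065 such pairs genome-wide. Among the 13514 pairs in the table it was 5.00%. Of the pairs outside the table with a summit in a promoter window, 26.6% of 1049 were higher in library 2. The share at these genes was thus close to that among pairs outside the table in general, over only 16 pairs. How the table's selection bears on such pairs was not tested.

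Some pairs outside the table had a higher mean -log10 p than a weak region inside it. Genome-wide the median of that value was 10.3 over pairs outside the table and 35.0 over pairs in it. Over the 16 member pairs outside it was 11.5. The Pou3f3 promoter pair had a mean -log10 p of 18.1. Another Pou3f3 pair, 12.1 kb downstream of the start, had 18.5, with a fold of 6.47 and 6.91. The weaker Pou2f2 region, inside the table, had 13.5, and genome-wide 2436 of the 11065 pairs outside the table reached at least that value. Over the 16 pairs the fold ran from 2.97 to 7.52 in library 1 and from 2.36 to 7.42 in library 2.

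**Figure D4:**
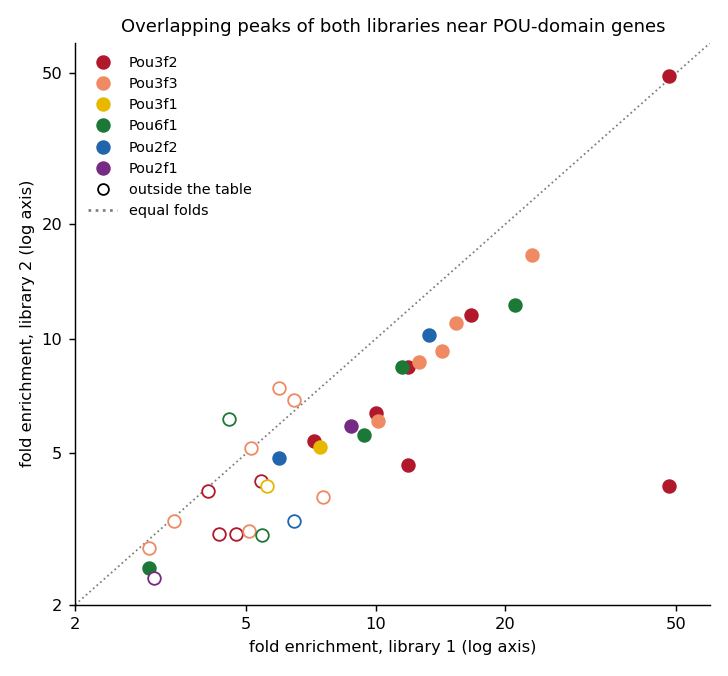
Fold enrichment in library 2 (y axis, log) against library 1 (x axis, log) for the 36 overlapping pairs of peaks within 25 kb of the 6 genes; filled points overlap a reproducible region, open points do not, and the dotted line marks equal folds. Open points scatter on both sides of the line, with 4 of 16 above it, and the filled Pou3f2 point near 4.12 on the y axis is the weaker library 2 peak under its strongest region.

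Among 8 other POU genes, 4 were listed (50%), against 41% of protein-coding genes: Pou5f1, Pou2f3, Pou5f2 and Pou4f2. None had a region within 5 kb of a start, against 18.1% of protein-coding genes. With only 8 genes, and with members chosen from the table, neither count sets these genes apart from the background or the members. The strongest was the region listed with Pou5f1, the pluripotency factor, at 26.6 in library 1 and 21.5 in library 2, which lay 22.9 kb downstream of the start and was listed with 5 other genes. Pou2f3, which is needed for tuft cells, had 17.1 and 16.0, past its end. Pou5f2 had 16.7 and 10.3. Pou4f2, a factor of retinal ganglion cells, had 8.19 in both, 5.007 kb downstream of its start. Pou1f1, Pou3f4, Pou4f1 and Pou4f3 had no region listed.

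Genes known to act with POU factors, or to be regulated by them, were taken from a list of 15 chosen from general knowledge with earlier results of these data known. Of these, 11 were listed, 8 had a region within 5 kb of a start and 7 within 1 kb, against 41%, 18.1% and 12.8% of protein-coding genes. Sox3, Nab1, Pou2af1 and Crh had no region listed. Sox2, whose protein pairs with POU factors on neural enhancers, had 10 regions, the strongest 4.464 kb downstream of its start at 29.9 in library 1 and 19.7 in library 2. Sox4, another SOX factor gene, had 5 regions, the strongest 16 bp from its start at 15.4 and 12.4.

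Genes of the myelin programme in Schwann cells were in the same list. Egr2, a target of Pou3f1 and Pou3f2 in those cells, had a region 524 bp upstream of a start at 18.5 in library 1 and 16.9 in library 2. Sox10, which acts with POU factors at the Egr2 enhancer, had 19.0 and 14.1, 23.1 kb downstream of its nearest listed start. That region lay outside Sox10 and was also listed with Micall1 and Polr2f, among others. Nab2, a corepressor of EGR factors, had 12.2 and 10.6, 495 bp inside the gene, in a region also listed with Stat6 and others. The regions of all 3 genes were below the strongest Pou3f2 region in both libraries, as 99.9% of all regions were by the lower fold.

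Neural targets and reprogramming partners completed the list. Myt1l, used with Pou3f2 to turn fibroblasts into neurons, had 30.3 in library 1 and 22.3 in library 2, inside the gene. Ets1, an ETS factor, had 26.6 and 21.7. Dll1, a Notch ligand gene bound by Pou3f2, had 14.0 and 12.9, 47 bp upstream of a start. Sox11 had 12.6 and 9.85, and Fabp7, a brain lipid-binding protein gene, had 10.0 and 7.74. Nes, which encodes the progenitor filament nestin, had 8.57 and 5.63. That Nes region lay outside the gene, 14.4 kb downstream of the nearest listed start, and was also listed with Bcan. The Nes region nearest to a start, 0.104 kb away, was weaker by the lower fold. The highest strongest region of this list had 30.3 in library 1. It lay below that of Pou3f2, which says little, since 99.9% of all regions did so by the lower fold.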

How the data were processed

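2 input and 2 ChIP libraries were deposited; only the ChIP lists are analysed here, and the sources used do not say how peak calling took in the inputs. Per the submitters' processing notes, CASAVA 1.8, Bowtie2 and MACS2 were used on GRCm38.p3; options are not stated. In the deposited peak lists, 1 per library, the pileup signal counts fragments at the summit and the fold is a ratio to local background, per the file headers. Columns with damaged headers in the deposited lists hold the authors' −log10 p and −log10 q of each peak, judged from their values and place. In the region table, the authors give the IDR (at most 0.05) under the heading of an adjusted p-value. Its pileup and fold columns are the same and equal the mean −log10 p of both libraries (12924 of 12925 regions within 0.001), so folds came from the peak lists. Region bounds were those of a library 1 peak in 12867 regions.

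Overlap was at least 1 bp. Transcripts, starts and strands came from the authors' table, and background genes from RefSeq (GRCm38.p6, chromosomes 1 to 19, X and Y), matched by symbol or by the synonym of a single gene. Members and lists were chosen with earlier results of these data known. A few genes of the lists are not reported here and were left out of the counts. Named genes were all members with every region, the other POU and partner genes with their strongest region, genes listed with the same regions, and the 3 most like Pou3f2. With 2 libraries and members chosen from the table, no test was made. Alternatives were an IDR of 0.01, windows of 5 and 1 kb, single libraries, the peak nearest the midpoint, 50% overlap and a −log10 q of at least 10. Overlap and the choice of the strongest overlapping peak were tested on simulated data. Tools were Python 3.11.15, scipy 1.17.1, pandas 2.3.3, matplotlib 3.10.9 and numpy 2.4.6.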

Additional observations from a re-analysis of the deposited data

How the results depend on the processing

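The counts moved with the window: 3 members and 5 regions had a midpoint within 5 kb of a start, and 2 members and 2 regions had one within 1 kb, while the share of protein-coding genes moved to 18.1% and 12.8% and the other POU genes to 0 within 5 kb. At an IDR of 0.01 or below, 5 members (without Pou3f1), 15 regions and 35.6% of genes were left. In either library alone all 6 members had a peak within 25 kb, which their choice by reproducible regions fixed. Over all protein-coding genes the median was 2 peaks in library 1 and 1 in library 2. Taking the overlapping peak nearest the midpoint gave 11.5 for the highest lower fold at Pou3f2, where 47.9 was reported, since the weaker library 2 peak lies nearer the midpoint of its upstream region. The other 5 genes kept their values, so Pou3f2 then came below Pou3f3 and Pou6f1. With each library alone, the strongest fold ranged over 47.9 to 49.2 at Pou3f2, 16.6 to 23.1 at Pou3f3, 12.3 to 21.0 at Pou6f1, 10.2 to 13.3 at Pou2f2, 5.89 to 8.75 at Pou2f1 and 5.21 to 7.43 at Pou3f1. Peaks of both libraries overlapped all 18 regions by 1 bp, which a table of reproducible regions itself requires. They overlapped 17 by 50% of the shorter interval and 12 with a −log10 q of at least 10. By midpoint or by either summit, 11 regions lay upstream of the nearest start. No paired analysis was possible because all libraries belong to 1 treatment and no test was made. Motifs around summits were not run, since no genome was used here. The weakest region rests on 16 and 11 fragments, and the libraries differ in their lowest background, the only guide to depth used here.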

Other observations

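Beyond 25 kb, up to 100 kb from the members, the same table held stronger regions than near some of the genes, and these were not counted above. The largest lay 66.3 kb upstream of Pou3f3, at chr1:42628672-42630187 and inside a Pantr1 transcript, with a fold of 40.9 in library 1 and 34.3 in library 2, from 252 and 146 fragments, and ranked 149 of 12925. That exceeds the strongest region within 25 kb of Pou3f3, at 23.1 and 16.6. At Pou3f1, a region 32.4 kb upstream, chr4:124623692-124625027, lay inside Gm27247 like the nearer one and had 25.4 and 18.7, against 7.43 and 5.21 for the nearer one. Another, 48.4 kb downstream of Pou3f1 and listed with Fhl3, Sf3a3 and others, had 13.3 and 10.2.

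At the other members the regions beyond 25 kb were listed with other genes. At Pou6f1 a region 37.3 kb upstream, listed with Bin2 and Dazap2 among others, had 13.6 and 8.19. At Pou2f1 one 38.9 kb upstream had 8.05 and 5.12. At Pou2f2 4 regions lay 60.1 to 91.3 kb upstream, and the farthest, near Erf and Cic, had 24.5 and 18.4. The next region from Pou3f2 was 92.6 kb downstream, inside Fbxl4, at 12.8 and 6.91. These regions were chosen after their values were seen, and to which gene each belongs was not tested.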
